A study of Mus musculus with 48 samples.

Results

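The genes described here are 10 members of the interleukin-6 pathway and the acute phase response, measured in the gastrocnemius muscle of mice given PFOS (perfluorooctane sulfonate, a persistent fluorinated surfactant). The members were selected on their listed gene names (Lcn2, Il6ra, Il6st, Osmr, Il1r1, Stat3, Socs3, C3, Hp and Serpina3n), a list chosen by reference to their response to 10 mg/kg/day, so the values of that contrast are given for them as a description, without a test. All 10 were among the 54532 genes of the deposited count table, and all 10 passed the filter on low counts that left 15583 genes for testing. The RNA-seq covered 48 mice of 2 genotypes, hCYP2B6-Tg and Cyp2b-null, in both sexes, which received 0, 1 or 10 mg/kg/day of PFOS by oral gavage for 21 days. By their names the first line carries the human drug-metabolising enzyme gene CYP2B6 as a transgene and the second lacks the mouse Cyp2b genes. No source used here gives the transgene's promoter, the strain or the age of the mice. Each of the 12 groups held 4 mice except the hCYP2B6-Tg males at 0 (5 mice) and the Cyp2b-null males at 10 mg/kg/day (3 mice), which gave 17, 16 and 15 mice at 0, 1 and 10 mg/kg/day. The 4 combinations of genotype and sex are called strata below.

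Interleukin-6 signals by binding its own receptor chain, Il6ra, and recruiting the shared chain gp130, encoded by Il6st, to which the oncostatin M receptor chain Osmr also pairs. Janus kinases on these chains activate the transcription factor STAT3, which induces among other genes its own feedback inhibitor Socs3. In liver and in other tissues STAT3, C/EBP factors and the NF-kappaB arm downstream of the interleukin-1 receptor Il1r1 together drive acute phase genes such as lipocalin 2 (Lcn2), complement C3, haptoglobin (Hp) and the serine protease inhibitor Serpina3n. Contracting muscle is itself a known source of interleukin-6, and fat cells are known to make haptoglobin and C3.

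Total counts ran from 11571142 to 19921061 per library, with a median of 14420691. The labels' library numbers were ordered by dose, without overlap, in each stratum, so anything that follows those numbers and dose cannot be told apart. The extraction text of the labels names liver, whereas the tissue field names gastrocnemius muscle. The summed CPM (a gene's share of its library's counts, scaled to a fixed total by TMM normalisation between libraries) of 10 muscle fibre genes had a median of 175359 at 0 and 120494 at 10 mg/kg/day, and that of 12 liver genes a median of 0.439 at 0. Of the 12 liver markers, 3 had no count in any library at 10 mg/kg/day. One library stood apart in its liver genes, with 27859 Alb counts in replicate 2 of the Cyp2b-null males at 1 mg/kg/day. Another 5 libraries held between 41 and 790 counts of Glycam1, a marker of lymph node vessels, where no other library held more than 2. These were replicate 3 of the Cyp2b-null females, replicate 1 of the hCYP2B6-Tg females, replicate 3 of the hCYP2B6-Tg males and replicate 3 of the Cyp2b-null males at 10 mg/kg/day, and replicate 4 of the hCYP2B6-Tg females at 0. Values without these 6 libraries are given below where they differ.

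In the mice at 10 mg/kg/day, averaged over strata, 8 of the 10 members were called higher than at 0 and 0 were called lower, where 47.5% of all 15583 genes were called and 25% were called higher (edgeR's quasi-likelihood test, adjusted p under 0.05 over all genes). Because the members were chosen on this contrast, the count describes the choice and nothing is read from it. The 8 were Lcn2, Il6ra, Il6st, Osmr, Il1r1, C3, Hp and Serpina3n, and the other members were Stat3 and Socs3. The median log2 fold change was 1.01 over the members and 0.04 over all genes tested. Of the 7403 genes called, 52.6% were higher, against 82.1% of 9162 genes on library totals without TMM factors, where the median log2 fold change of all genes was 0.26. The members' values below are relative to the TMM scale.

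**Figure D1:**
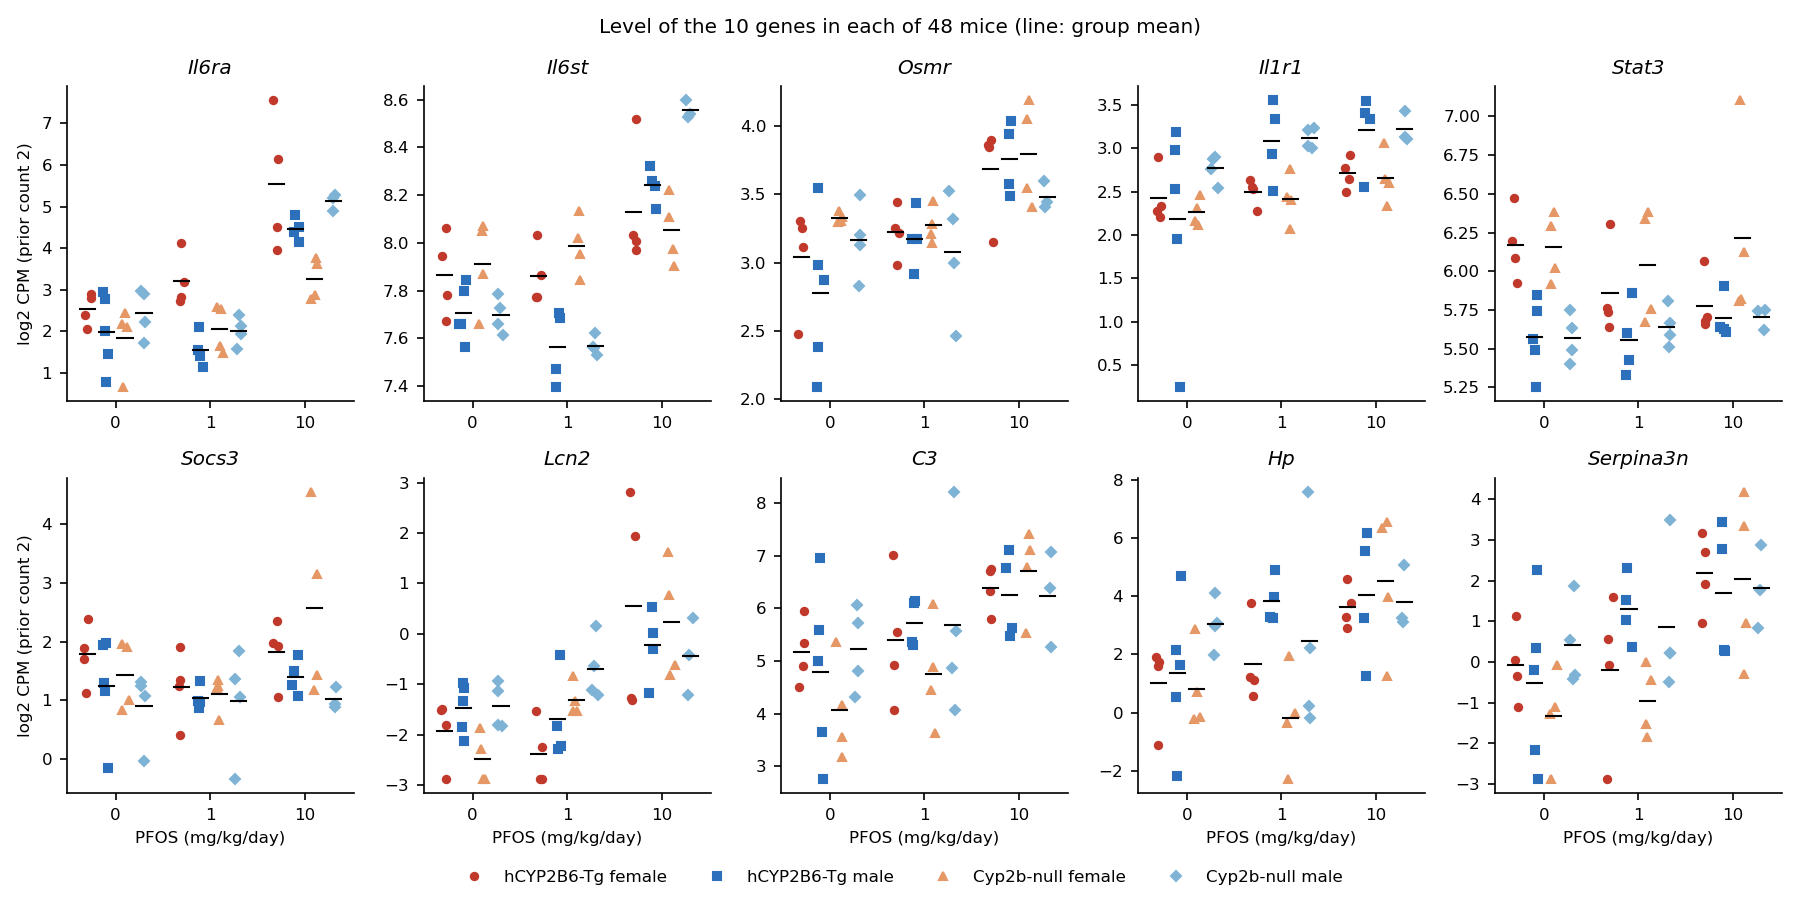
Log2 CPM (prior count 2, y axis) of each of the 10 members in each of the 48 mice (points) by PFOS dose in mg/kg/day (x axis) and stratum (colour), with lines at group means. Il6ra is the only panel in which every mouse at 10 mg/kg/day lies above every mouse at 0 of its stratum in all 4 strata.

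The receptor chain Il6ra (ENSMUSG00000027947, GRCm38 chromosome 3, 89864059 to 89913196, minus strand) had the clearest separation of doses among the members. In hCYP2B6-Tg females its level was 4.03, 6.79, 5.17 and 7.38 CPM at 0, and 22.7, 187, 70.1 and 15.5 CPM at 10 mg/kg/day. In hCYP2B6-Tg males it was 6.70, 2.63, 3.89, 1.58 and 7.59 CPM at 0, and 17.7, 22.5, 27.8 and 20.7 CPM at 10. No value at 10 mg/kg/day overlapped those at 0 in either group, and the hCYP2B6-Tg females spread far more widely than the males. In Cyp2b-null females the values were 4.15, 5.29, 1.45 and 4.38 CPM at 0 and 13.4, 7.26, 12.1 and 6.70 CPM at 10. In Cyp2b-null males they were 7.29, 3.14, 7.69 and 4.54 CPM at 0 and 29.5, 36.5 and 38.9 CPM at 10. The groups did not overlap in these strata either, so every one of the 15 mice at 10 mg/kg/day lay above the highest mouse at 0 of its stratum. Among all genes tested, 0.809% (126) separated in this way, upwards, in all 4 strata, and Il6ra was the 1 member among them. The log2 fold change averaged over strata was 2.48 ± 0.25 (SE), a 5.59-fold higher level, and it was 2.23 without replicate 2 of the hCYP2B6-Tg females at 10 mg/kg/day, the mouse at 187 CPM.

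At 1 mg/kg/day the level of Il6ra was 5.28 ± 3.75 CPM (SD, n = 16), against 4.92 ± 2.06 CPM (n = 17) at 0. The mouse highest at that dose, an hCYP2B6-Tg female at 17.4 CPM, stood above every mouse at 0. An antisense gene within Il6ra, Gm42809, held 79 counts in all libraries together against 11492 for Il6ra. No source used here says whether the counting used strand.

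The shared chain Il6st (gp130; ENSMUSG00000021756, GRCm38 chromosome 13, 112464070 to 112510086, plus strand) was the most abundant member per length of transcript, at 20.1 ± 2.32 CPM per kb (SD, n = 17) at 0. By the same measure C3 followed at 7.12 ± 5.61 and Stat3 at 6.22 ± 1.57 CPM per kb, whose ranges overlapped widely, and then Hp at 3.35 ± 4.18. Socs3 at 0.911 ± 0.403, Il1r1 at 0.872 ± 0.296, Osmr at 0.701 ± 0.175, Il6ra at 0.570 ± 0.238 and Serpina3n at 0.514 ± 0.612 CPM per kb lay within each other's spread. Lcn2 was lowest, at 0.0672 ± 0.0483 CPM per kb. At 10 mg/kg/day Il6ra had 4.08 ± 5.20 CPM per kb, against 27.3 ± 4.51 for Il6st, so its mean stood above those of Osmr, Il1r1 and Socs3, which it had been below at 0.

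In hCYP2B6-Tg males Il6st was at 202, 202, 223, 189 and 229.8 CPM at 0, and at 302, 307, 320.1 and 282 CPM at 10 mg/kg/day. In Cyp2b-null males it was at 221, 196, 202 and 212 CPM at 0, and at 387, 369 and 372 CPM at 10. In both male strata the doses did not overlap. In hCYP2B6-Tg females Il6st was at 247, 220.1, 267 and 204 CPM at 0, and at 250.4, 367, 257 and 261 CPM at 10. In Cyp2b-null females it was at 265, 234, 202 and 269 CPM at 0, and at 299, 251, 276 and 239.6 CPM at 10. The female groups overlapped, and 1 of 4 hCYP2B6-Tg and 2 of 4 Cyp2b-null females at 10 mg/kg/day lay above the highest control of their stratum.

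The log2 fold change of Il6st at 10 mg/kg/day was 0.53 in hCYP2B6-Tg males, 0.86 in Cyp2b-null males, and 0.28 and 0.14 in the corresponding females. The female values moved with single mice: the first was 0.13 without replicate 2 at 10 mg/kg/day, and the second 0.06 without replicate 3 at 0. The difference between the sexes in the effect of 10 mg/kg/day (male minus female, over both genotypes) was 0.49 ± 0.10 on the log2 scale (SE, adjusted p = 0.0314, edgeR's quasi-likelihood test over all genes). Only 20 genes, 0.128% of those tested, passed this test, and Il6st was the 1 member of 10. The call was close to the threshold: it was lost in 13 of 48 fits that each left out 1 library (adjusted p between 0.0505 and 0.0766), on unscaled library totals (0.45, adjusted p = 0.150), without a filter on low counts (0.49, adjusted p = 0.0985), with the replicate number as a block (0.50, adjusted p = 0.0502) and without the 6 libraries that stood apart (0.50, adjusted p = 0.109). The 13 libraries were replicates 1 and 3 at 0 and 1, 3 and 4 at 10 mg/kg/day of the hCYP2B6-Tg females, replicates 1 and 4 at 0 and 2 at 10 of the Cyp2b-null females, replicate 4 at 0 of the hCYP2B6-Tg males, and replicate 2 at 0 and all 3 at 10 of the Cyp2b-null males. DESeq2 gave an adjusted p of 0.00338 and limma voom 0.00122 for it. At 0 mg/kg/day Il6st was lower in males by a log2 difference of -0.19 ± 0.07, which did not pass (adjusted p = 0.0940).

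**Figure D2:**
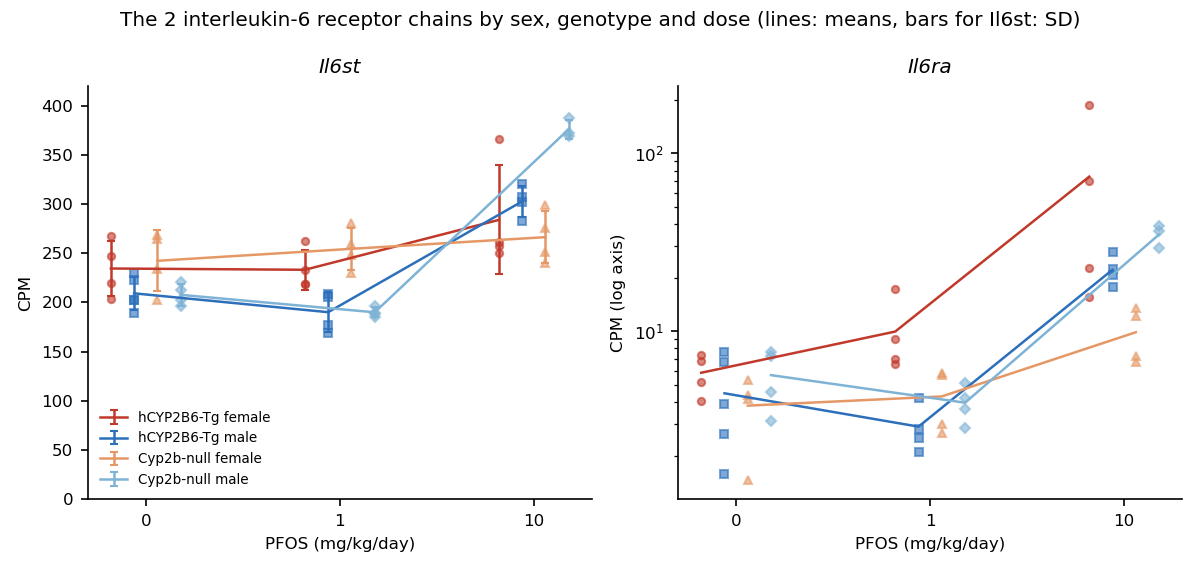
CPM of Il6st (left, linear axis from 0; bars are ± SD) and Il6ra (right, log axis, no error bars), with lines joining group means, by PFOS dose in mg/kg/day in the 4 strata, with a point for each of the 48 mice. Il6st at 10 mg/kg/day lies between 282 and 387 CPM in males, above every male at 0, and overlaps the controls in females, while Il6ra lies above the controls of its stratum in all 15 mice.

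For the other chains the doses were closer together. Osmr (ENSMUSG00000022146, GRCm38 chromosome 15, 6813577 to 6874969, minus strand) had 8.49 ± 2.12 CPM at 0, 9.11 ± 1.51 at 1 and 13.1 ± 2.73 at 10 mg/kg/day (SD; n = 17, 16 and 15). Its log2 fold change at 10 was 0.60 ± 0.11, between 0.30 in Cyp2b-null males and 0.92 in hCYP2B6-Tg males. Of 15 mice at 10 mg/kg/day, 11 lay above the highest control of their stratum, and only the Cyp2b-null females (9.93, 9.75, 9.69 and 10.3 CPM at 0, and 16.4, 11.57, 18.1 and 10.5 CPM at 10) were without overlap. Il1r1 (ENSMUSG00000026072, GRCm38 chromosome 1, 40225080 to 40317257, plus strand), the signalling receptor of interleukin-1, had 5.55 ± 1.88, 7.02 ± 2.14 and 7.77 ± 2.14 CPM at 0, 1 and 10 mg/kg/day. Its log2 fold change of 0.49 ± 0.14 was the smallest in relation to its error among the 8 called members, and 10 of 15 mice lay above the highest control of their stratum. Without the 6 libraries that stood apart the value of Il1r1 was 0.41 and it was no longer called. The doses of Il1r1 were without overlap only in Cyp2b-null males, at 7.36, 7.23, 5.69 and 6.65 CPM at 0 and 8.61, 8.48 and 10.7 CPM at 10.

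The transcription factor Stat3 (ENSMUSG00000004040, GRCm38 chromosome 11, 100885098 to 100939540, minus strand) was at 59.3 ± 15.0 CPM at 0, 55.9 ± 13.3 at 1 and 60.2 ± 22.3 at 10 mg/kg/day. Its log2 fold change averaged over strata was 0.00 ± 0.10, with -0.40 in hCYP2B6-Tg females, 0.11 in hCYP2B6-Tg males, 0.16 in Cyp2b-null females and 0.13 in Cyp2b-null males. The Cyp2b-null female value contained replicate 3, at 137.4 CPM beside 69.8, 56.4 and 55.9 CPM in the others of its group. Stat3 differed between the sexes without PFOS: females at 0 lay between 60.4 and 88.9 CPM in both genotypes, and males between 38.0 and 57.3 CPM, without overlap. The log2 difference (male minus female) was -0.59 ± 0.13 (adjusted p = 0.00343, edgeR's quasi-likelihood test), a comparison in which 7.59% of all genes passed, and it passed in all 48 fits that left out 1 library. Stat3 was the 1 member of 10 to pass there. Hp and Serpina3n were higher in males at 0 by log2 1.65 ± 0.89 and 1.25 ± 0.78, which did not pass, and by 0.81 and 0.55 without replicate 5 of the hCYP2B6-Tg males at 0. Stat3 overlaps Stat5a on the opposite strand, which held 12189 counts in all against 41530 for Stat3.

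Socs3 (ENSMUSG00000053113, GRCm38 chromosome 11, 117966079 to 117970047, minus strand), the feedback inhibitor of the pathway, was not called over the strata, with a log2 fold change of 0.46 ± 0.25. In Cyp2b-null females it was at 3.74, 1.65, 1.86 and 3.598 CPM at 0, and at 8.80, 2.12, 23.3 and 2.54 CPM at 10 mg/kg/day. Replicates 1 and 3 were thus above every control and the other mice of the group within the control range. The log2 fold change of 1.76 in that stratum was 0.71 without replicate 3 of that group and replicate 2 of the hCYP2B6-Tg females, the libraries highest in Socs3 and Il6ra. In the remaining strata the log2 fold changes of Socs3 were 0.05 (hCYP2B6-Tg females), -0.01 (hCYP2B6-Tg males) and 0.05 (Cyp2b-null males), and 2 of 15 mice at 10 mg/kg/day were above the highest control of their stratum. Socs3 is a textbook target of STAT3, and its promoter window (250 bases before to 50 after the start, RefSeq, GRCm38.p6) was the only one among the members with the STAT palindrome TTCNNNGAA, which 8.3% of 32851 windows held. The match lies 154 to 146 bases before the start, here with 10 bases on each side and the match in capitals (chr11:117969502-117969530, minus strand). This stretch falls inside the bounds of the deposited Socs3 gene model, which starts further upstream.
Socs3: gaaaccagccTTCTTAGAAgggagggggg

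Lipocalin 2 (Lcn2; ENSMUSG00000026822, GRCm38 chromosome 2, 32384633 to 32388252, minus strand), an iron-sequestering acute phase protein also stored in neutrophils, was nearly unread without PFOS. In hCYP2B6-Tg females the counts were 2, 0, 3 and 3 at 0, and 4 and 5 in replicates 1 and 4 and 63 in replicate 2 at 10 mg/kg/day, where replicate 3 was the highest of all mice at 6.87 CPM. In Cyp2b-null females they were 2, 1, 0 and 0 at 0, and 28, 8, 59 and 7 at 10. After scaling to CPM neither female stratum overlapped. In hCYP2B6-Tg males the counts were 2, 4, 1, 3 and 5 at 0, and 13, 12, 24 and 4 at 10, and in Cyp2b-null males 5, 2, 5 and 2, and 4, 9 and 25. In each male stratum 1 mouse at 10 mg/kg/day lay within the control range. Lcn2 had 0.176 ± 0.127 CPM at 0, 0.274 ± 0.255 at 1 and 1.45 ± 1.81 at 10 mg/kg/day. The log2 fold changes at 10 were 4.17 and 4.51 in hCYP2B6-Tg and Cyp2b-null females, and 1.69 and 1.43 in males, with 2.95 ± 0.44 over the strata, and they rest on few counts.

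The sex difference of the Lcn2 effect (male minus female) was -2.78 ± 0.91 on the log2 scale and did not pass (adjusted p = 0.232). The hCYP2B6-Tg female with the highest Lcn2 also held 424 counts of the neutrophil granule gene Ltf, of 473 in all libraries at 10 mg/kg/day. The summed level of the 12 neutrophil markers ranged from 0 to 1.19 CPM at 0 and from 0.473 to 21.0 CPM at 10 mg/kg/day. The upper end was mostly Ltf, which reached 20.4 CPM in that female. Of the defining neutrophil genes, S100a8 had at most 6 counts in any library. The 1 neutrophil marker with enough counts to test rose. Without that library the averaged log2 fold change of Lcn2 was 2.70.

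**Figure D3:**
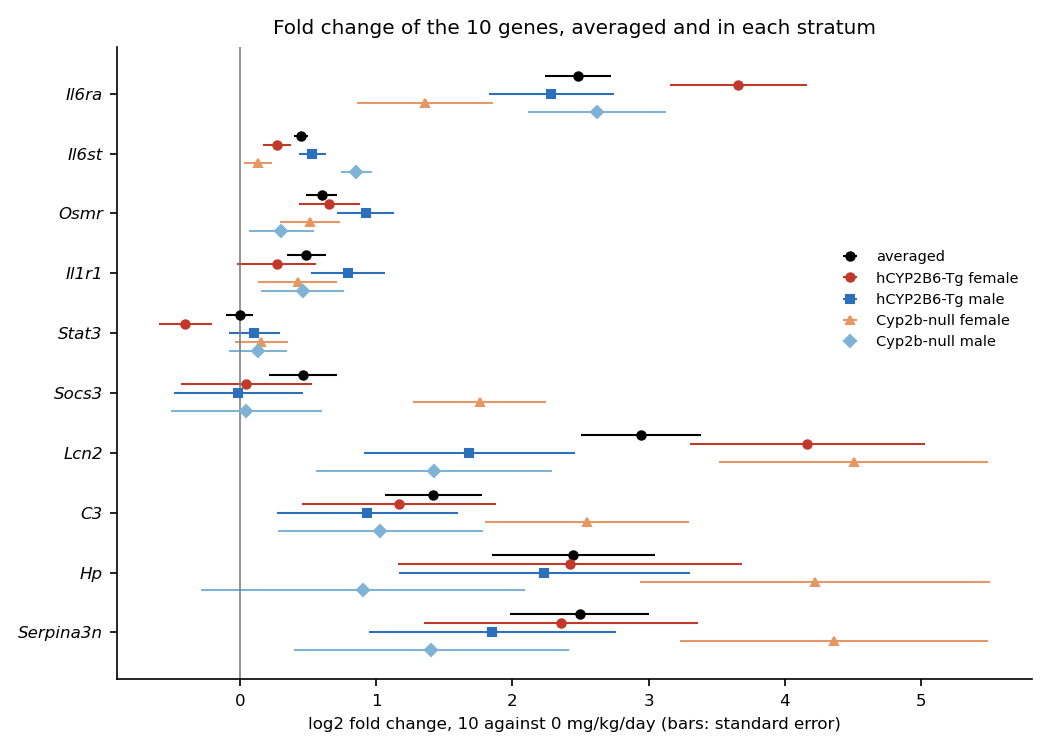
Log2 fold change at 10 against 0 mg/kg/day of the 10 members (x axis; bars are ± SE from the quasi-likelihood fit), averaged over strata and in each of the 4 strata. Lcn2 reaches 4.51 in Cyp2b-null females and 1.43 in Cyp2b-null males, while Stat3 lies at 0.00 on average.

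C3 (ENSMUSG00000024164, GRCm38 chromosome 17, 57203970 to 57228136, minus strand), the central complement protein, was at 36.6 ± 28.8 CPM at 0 and 93.8 ± 41.1 CPM at 10 mg/kg/day, a log2 fold change of 1.42 ± 0.36. Cyp2b-null females had 40.8, 11.7, 8.96 and 17.7 CPM at 0 and 171, 110.3, 137.3 and 46.3 CPM at 10, without overlap. In the other strata the doses overlapped, as in hCYP2B6-Tg males with 31.7, 12.5, 47.8, 6.67 and 123.5 CPM at 0 and 49.3, 108.4, 138.2 and 44.3 CPM at 10. Haptoglobin (Hp; ENSMUSG00000031722, GRCm38 chromosome 8, 109575128 to 109579172, minus strand), which binds free haemoglobin, ranged from 0.0848 to 25.6 CPM at 0 (median 3.19) and from 2.23 to 93.8 CPM at 10 mg/kg/day (median 13.5). Its log2 fold change of 2.45 ± 0.60 had the largest error of the 10 members, and its spread between mice of the same group (SD 1.92 on the log2 scale) was the widest, against 0.14 for Il6st at the other end. Serpina3n (ENSMUSG00000021091, GRCm38 chromosome 12, 104406729 to 104414329, plus strand) ranged from 0 to 4.66 CPM at 0 (median 0.658) and from 0.682 to 17.9 CPM at 10 mg/kg/day (median 3.65), a log2 fold change of 2.49 ± 0.51. No stratum of Serpina3n was without overlap, and 9 of 15 mice lay above the highest control of their stratum, against 10 of 15 for C3 and for Hp.

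In Cyp2b-null females the log2 fold changes of C3, Hp and Serpina3n were 2.55, 4.22 and 4.36, and in the other strata they lay between 0.90 and 2.42. Without replicate 3 at 10 mg/kg/day the Cyp2b-null male values of Hp, C3 and Serpina3n went from 0.90, 1.03 and 1.41 to -0.07, 0.55 and 0.68. Without replicate 5 at 0 the hCYP2B6-Tg male values went from 2.23, 0.94 and 1.85 to 3.92, 1.79 and 3.26. Neither the sex nor the genotype difference of the effect passed for any of these 3 genes. The same mice tended to be high in all of them: in deviations from the group means over the 48 libraries, Hp and Serpina3n had a Pearson correlation of 0.81, C3 and Serpina3n 0.80 and C3 and Hp 0.79. These correlations describe mice that share library and depth, and carry no test.

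Of the 10 members, 9 had promoter windows in the RefSeq table (10 windows of 300 bases, GRCm38.p6), the exception being Hp. Besides the STAT palindrome, windows were searched on both strands for the type 1 interleukin-6 response element TTNNGNAAT, a C/EBP-type motif held by 11.5% of the 32851 windows, and for the core of the type 2 element CTGGGAA, held by 11.1%. The first was found in windows of Il1r1, Stat3, Serpina3n and C3, and the second in none. The 250 bases before the start of C3 and of Serpina3n are shown because these genes varied together between mice, with the matches to TTNNGNAAT or its reverse complement in capitals. The C3 window is chr17:57228137-57228386 on the minus strand, with a match 45 to 37 bases before the start. The Serpina3n window is chr12:104406458-104406707 on the plus strand, with matches 228 to 220 and 57 to 49 bases before the start. None of the printed matches overlapped a match of another motif, and a match describes letters only.
C3: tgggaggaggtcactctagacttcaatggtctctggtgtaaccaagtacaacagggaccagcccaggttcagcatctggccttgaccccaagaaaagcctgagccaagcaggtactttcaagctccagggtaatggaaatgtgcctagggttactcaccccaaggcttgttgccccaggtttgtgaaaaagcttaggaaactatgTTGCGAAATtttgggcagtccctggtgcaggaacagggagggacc
Serpina3n: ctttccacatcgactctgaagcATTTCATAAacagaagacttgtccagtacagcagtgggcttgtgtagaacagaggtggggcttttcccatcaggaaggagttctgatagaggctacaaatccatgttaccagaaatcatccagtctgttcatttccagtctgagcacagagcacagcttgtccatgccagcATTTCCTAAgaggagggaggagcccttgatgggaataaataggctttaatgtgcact

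The levels of C3, Hp and Serpina3n moved with markers of fat. The mean log2 CPM of 15 adipocyte markers, as the deviation from the group mean over 48 mice, correlated with Hp at r = 0.73 (rho = 0.78, adjusted p = 0.000133, permutation test over 40 relations of members and marker lists), with Serpina3n at r = 0.69 (rho = 0.71, adjusted p = 0.00024) and with C3 at r = 0.59 (rho = 0.63, adjusted p = 0.000133). Osmr (r = 0.58), Socs3 (r = 0.54) and Il1r1 (r = 0.42) also passed. Lcn2 (r = 0.25), Il6ra (r = 0.22), Stat3 (r = 0.21) and Il6st (r = -0.07) did not. Leaving out the 2 libraries farthest from the median of the list gave 0.69, 0.67 and 0.57 for Hp, Serpina3n and C3, and 0.57, 0.57 and 0.39 for Osmr, Socs3 and Il1r1. The adipocyte markers were themselves higher with dose: 10 of 15 rose and 1 fell at 10 mg/kg/day, and Adipoq, the adiponectin gene, had 1600, 3263 and 12417 counts in all at 0, 1 and 10. Their summed level ranged from 2738 to 6494 CPM at 0 and from 2859 to 5480 CPM at 10, a sum made up mostly of Car3. In bulk tissue, more cells of a type and more RNA per cell cannot be told apart.

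With the adipocyte markers as a covariate, 4 of the 10 members were called in place of 8, while 34.3% of all genes were called in place of 47.5%. Lcn2 (2.46), Il6ra (2.37), Il6st (0.47) and Osmr (0.32) stayed called, whereas Serpina3n (1.11), C3 (0.59), Hp (0.49) and Il1r1 (0.22) were not called on the log2 scale. The part of fat in these values was not tested beyond this fit.

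**Figure D4:**
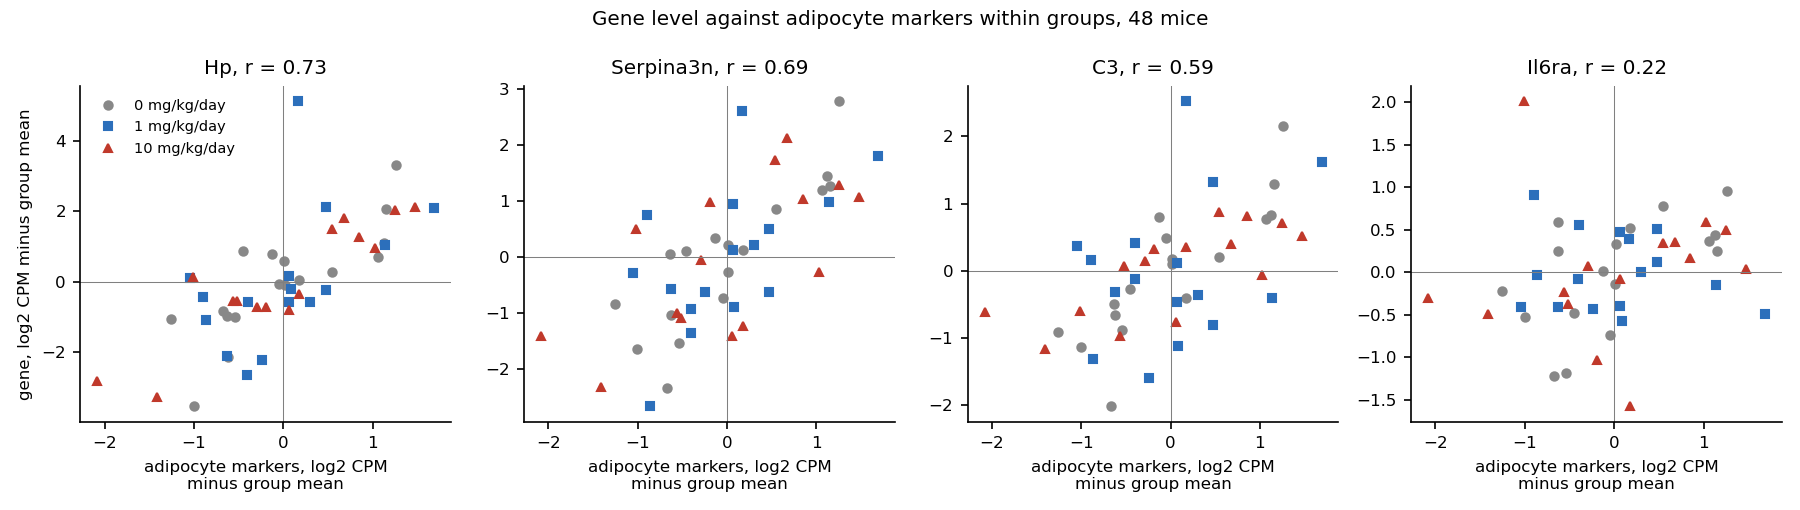
Deviation from the group mean of log2 CPM of Hp, Serpina3n, C3 and Il6ra (y axis) against that of the mean of 15 adipocyte markers (x axis) in 48 mice (points). Hp, Serpina3n and C3 follow the markers with r of 0.73, 0.69 and 0.59, and Il6ra has r of 0.22.

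Macrophage markers moved with some of the same genes. The correlation was 0.81 for C3 (rho = 0.82), 0.69 for Serpina3n (rho = 0.63), 0.56 for Hp (rho = 0.63) and 0.40 for Stat3 (rho = 0.42, adjusted p = 0.0356 by permutation), all of which passed, and these kept 0.74, 0.62, 0.53 and 0.42 without the 2 farthest libraries. For Il1r1 (r = 0.56) and Osmr (r = 0.47) it dropped to 0.23 and 0.24, so those relations rest on the 2 libraries. Without the 6 libraries that stood apart, the macrophage relations of C3, Serpina3n and Hp still passed. Those of Stat3, Il1r1 and Osmr no longer passed (adjusted p = 0.0937 for each, permutation test, n = 42). Their r was then 0.40, 0.55 and 0.46, close to the values over all libraries. The summed level of the 12 macrophage markers was 23.7 to 130 CPM at 0 and 48.6 to 115 CPM at 10 mg/kg/day, with 6 of 10 tested markers rising and 1 falling. Liver markers correlated with Hp (r = 0.58), C3 (r = 0.50) and Serpina3n (r = 0.40), which passed, and these dropped to 0.37, 0.24 and 0.27 without the 2 farthest libraries. None of these 3 liver relations passed without the 6 libraries (adjusted p between 0.0937 and 0.395, permutation test). The neutrophil list passed with 0 of the 10 members by this permutation test. Each list was scored only on its markers that passed the filter on low counts. These were 10 of 12 for macrophages, 5 of 12 for liver and 1 of 12 for neutrophils. With 1 gene, the neutrophil result cannot speak for neutrophils in general. Lymphocyte markers, of which 9 of 11 tested rose and 1 fell, ranged from 15.9 to 350 CPM at 0 and from 3.27 to 186 CPM at 10 mg/kg/day, mostly Ighm, and their part in the members' values was not tested.

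At 1 mg/kg/day 0 of the 10 members and 0 of all genes (0%) passed against 0 by edgeR's quasi-likelihood test, where 578 genes had an unadjusted p under 0.05, DESeq2 called 1 gene and limma voom 0. The largest values were the log2 fold changes of Hp (0.88 ± 0.65), Serpina3n (0.69 ± 0.55), C3 (0.69 ± 0.35) and Lcn2 (0.56 ± 0.53), each at adjusted p = 0.999988. Il1r1 (0.31 ± 0.14) was the 1 member with an unadjusted p under 0.05 (0.0365). The values of Hp and C3 turned on the library high in Alb, which held 190.5 CPM of Hp and 295 CPM of C3. With it the mice at 1 mg/kg/day averaged 17.8 ± 46.7 CPM of Hp and 60.0 ± 69.0 CPM of C3 (SD, n = 16), and without it 6.29 ± 8.09 and 44.3 ± 30.1 CPM (n = 15). The same library held 11.05 CPM of Serpina3n, whose mean was 1.94 ± 2.72 CPM with that library and 1.34 ± 1.28 CPM without it. Without the 6 libraries that stood apart the log2 fold change of Hp at 1 mg/kg/day was -0.23 ± 0.58 and that of C3 0.36 ± 0.33.

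Against 1 mg/kg/day, which shares the mice at 10 with the contrast above, 7 of 10 members were called higher at 10 mg/kg/day, where 46.9% of all genes were called. These were Il6ra (log2 fold change 2.54), Lcn2 (2.38), Serpina3n (1.80), Hp (1.57), Socs3 (0.74), Osmr (0.51) and Il6st (0.50). C3 and Il1r1, which had been called against 0, were not called here.

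Within strata, again as a description of values the members were chosen on, 4 members were called at 10 against 0 mg/kg/day in hCYP2B6-Tg females (Lcn2, Il6ra, Il6st and Osmr), where 27.7% of genes were called. In hCYP2B6-Tg males 4 were called (Il6ra, Il6st, Osmr and Il1r1; 18.5% of genes), in Cyp2b-null females 5 (Lcn2, Socs3, C3, Hp and Serpina3n; 12.7%) and in Cyp2b-null males 2 (Il6ra and Il6st; 15.8%). All of these were higher. The Cyp2b-null female count was the least stable: without replicate 3 of that group at 10 mg/kg/day, the mouse with the highest Socs3, Stat3 and Serpina3n, 1 member was called. Leaving out replicate 2 or 3 of that stratum at 0 gave 2 members, and replicate 4 at 0 or replicate 1 at 10 gave 3. In hCYP2B6-Tg females the count was 2 without replicate 1 at 0 or without replicate 2 at 10 mg/kg/day. Il6ra was not called in Cyp2b-null females, where its log2 fold change was 1.36, against 3.66 in hCYP2B6-Tg females, 2.62 in Cyp2b-null males and 2.29 in hCYP2B6-Tg males.

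The differences between strata were then tested directly. The genotype difference of the effect (Cyp2b-null minus hCYP2B6-Tg, over both sexes) passed for 0 of 10 members and for 0% of genes by edgeR's quasi-likelihood test, with 1378 genes at an unadjusted p under 0.05, 3 called by DESeq2 and 0 by limma voom. Il6ra was nearest, at -0.98 ± 0.48 (adjusted p = 0.563), and at -0.47 without replicate 2 of the hCYP2B6-Tg females at 10 mg/kg/day, the mouse at 187 CPM. Whether the genotype difference itself differed between the sexes was tested as a 3-way contrast, which 0 of 10 members and 0.918% of genes passed. Il6ra had 2.64 ± 0.97 there (adjusted p = 0.168) and Il6st 0.46 ± 0.21 (adjusted p = 0.274). Of 48 fits that left out 1 library, the Il6ra value passed only without replicate 4 of the hCYP2B6-Tg females at 10 mg/kg/day (2.97), and it was 1.61 without replicate 2 of that group. At 0 mg/kg/day the genotypes differed in 0 of 10 members and 0% of genes by edgeR's test, with 535 genes at an unadjusted p under 0.05, 9 called by DESeq2 and 5 by limma voom.

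Further genes of the pathway were read from 7 lists of 151 genes that leave out the members, of which 150 were in the table and 115 had enough counts to test. At 10 against 0 mg/kg/day 47 rose and 14 fell, so 53.0% of those tested passed where 47.5% of all genes did, with a median log2 fold change of 0.26 against 0.04. These lists were chosen with earlier results of these data known, so these shares and their genes' adjusted p-values are given as a description. The ligands themselves were scarcely read in this muscle. Il6 had 73 counts in all 48 libraries together and at most 7 in any library, Osm 47, Il1b 33 and Tnf 70. Of 13 ligands only 2 could be tested: Ctf1 (cardiotrophin 1) fell by 0.36 on the log2 scale (SE 0.07, adjusted p = 0.000111, edgeR as for all genes of these lists), and Clcf1 did not pass (0.44 ± 0.31).

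Of 13 receptor chains tested, 2 rose and 2 fell (median 0.03). The endotoxin receptor Tlr4 rose by 0.76 ± 0.19 (adjusted p = 0.00082) and the tumour necrosis factor receptor Tnfrsf1a by 0.36 ± 0.12 (adjusted p = 0.0124). The ciliary neurotrophic factor receptor Cntfr fell by 0.44 (SE 0.12, adjusted p = 0.00155). The leukaemia inhibitory factor receptor Lifr, another partner of gp130, was at -0.03 ± 0.06 and the interleukin-11 receptor Il11ra1 at -0.07 ± 0.07, and neither passed.

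Among 24 genes of JAK-STAT signalling and its inhibitors, 9 rose and 5 fell (median 0.06). The kinase Jak2 fell by 0.39 (SE 0.08, adjusted p = 5.28e-05), Socs7 fell by 0.47 (SE 0.06, adjusted p = 1.35e-07) and the adaptor Grb2 fell by 0.22 (SE 0.05, adjusted p = 0.000141), while Stat5a rose by 0.38 ± 0.07 (adjusted p = 5.73e-05). On unscaled library totals Grb2 lost its fall (0.0032). Jak1, the main kinase on gp130, was at -0.09 ± 0.08, and the phosphatase Ptpn11 at -0.11 ± 0.06, and neither passed.

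Of 20 STAT3 and C/EBP targets and factors, 10 rose and 3 fell (median 0.38). The transcription factor Cebpd, an early acute phase regulator, rose by 2.11 ± 0.26 (adjusted p = 1.18e-08), from 16.9 ± 9.72 CPM at 0 to 86.8 ± 101.8 CPM at 10 mg/kg/day. Its log2 fold change was 3.504 in hCYP2B6-Tg females, 2.82 in Cyp2b-null males and 2.21 in hCYP2B6-Tg males, but -0.09 in Cyp2b-null females, and 23.0% of its counts lay in replicate 2 of the hCYP2B6-Tg females at 10 mg/kg/day, the library highest in Il6ra. The 3-way contrast of Cebpd was 4.20 ± 1.02 (adjusted p = 0.0353). It lost its call in 12 of 48 fits without 1 library, being smallest without that library (2.95, adjusted p = 0.104), and with limma voom (3.23, adjusted p = 0.0603), the replicate block (4.11, adjusted p = 0.0609), unscaled totals, the adipocyte covariate and the fits without the 6 or the 2 libraries. The survival kinase Pim3 rose by 0.73 ± 0.11 (adjusted p = 3.41e-07), with 0.02 in Cyp2b-null females and 0.82 to 1.11 elsewhere, and the anti-apoptotic genes Bcl2l1 by 0.82 ± 0.14 (adjusted p = 3.49e-06) and Mcl1 by 0.31 ± 0.05 (adjusted p = 8.84e-06). Cebpb at 0.29 ± 0.13 (adjusted p = 0.0540) and Nfil3 at 0.44 ± 0.19 (adjusted p = 0.0574) lay just outside the threshold. In the NF-kappaB arm 8 of 21 genes rose and 0 fell (median 0.17), so 38.1% passed, below the 47.5% of all genes. The inhibitors Nfkbib (0.69 ± 0.08, adjusted p = 4.55e-09) and Nfkbia (0.60 ± 0.11, adjusted p = 1.64e-05), the subunit Rela (0.49 ± 0.08, adjusted p = 1.24e-06) and the kinase Irak1 (0.17 ± 0.05, adjusted p = 0.00316) were among them. Nfkbia was at -0.23 in Cyp2b-null females and between 0.75 and 1.06 in the other strata. Neither Pim3 nor Nfkbia passed the tests of the sex, genotype or 3-way difference. Map3k7 (-0.10 ± 0.05) and Ikbkg (-0.00 ± 0.06) did not pass.

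Of 16 other acute phase genes tested, 9 rose and 1 fell (median 1.07). The metal-binding gene Mt1 rose by 2.06 ± 0.28 (adjusted p = 7.08e-08), from 6.63 ± 3.32 to 29.6 ± 31.1 CPM, Serpina3c by 2.22 ± 0.42 (adjusted p = 3.48e-05) and the copper carrier Cp by 1.24 ± 0.25 (adjusted p = 9.86e-05). Of the counts of Mt1, 22.8% lay in replicate 3 of the Cyp2b-null females at 10 mg/kg/day. The long pentraxin Ptx3 fell by 1.27 (SE 0.17, adjusted p = 1.15e-07), from 13.5 ± 3.75 to 5.59 ± 2.68 CPM. Lrg1 (0.29 ± 0.17) and Lbp (0.09 ± 0.19) did not pass. The remaining 17 acute phase genes had too few counts to test, and 14 of them had over 50% of all their counts in the library high in Alb. Some tested genes of the list also lay mostly in that library, with 96.7% of the counts of Fgb, 98.2% of Serpina1b, 91.5% of Serpinf2 and 83.0% of Itih4. Of the counts of Saa1, 73.9% (82) lay in that library, and Saa3 had 31 counts in all. Of 19 complement genes tested, 9 rose and 2 fell (median 0.44). The anaphylatoxin receptor C5ar1 rose by 0.71 ± 0.25 (adjusted p = 0.0175). Without replicate 3 of the hCYP2B6-Tg males at 10 mg/kg/day it was 0.58 and lost its call (adjusted p = 0.0519 by the same edgeR test). The membrane regulators Cd59a, at -0.58 ± 0.10 (adjusted p = 6.72e-06), and Cd55, at -0.54 ± 0.10 (adjusted p = 2.19e-05), fell, while Clu (-0.03 ± 0.15) and Cd46 (0.12 ± 0.07) did not pass. In the fit with the adipocyte covariate, 34 of the 115 pathway genes (29.6%) passed in place of 61, where 34.3% of all genes did.

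**Figure D5:**
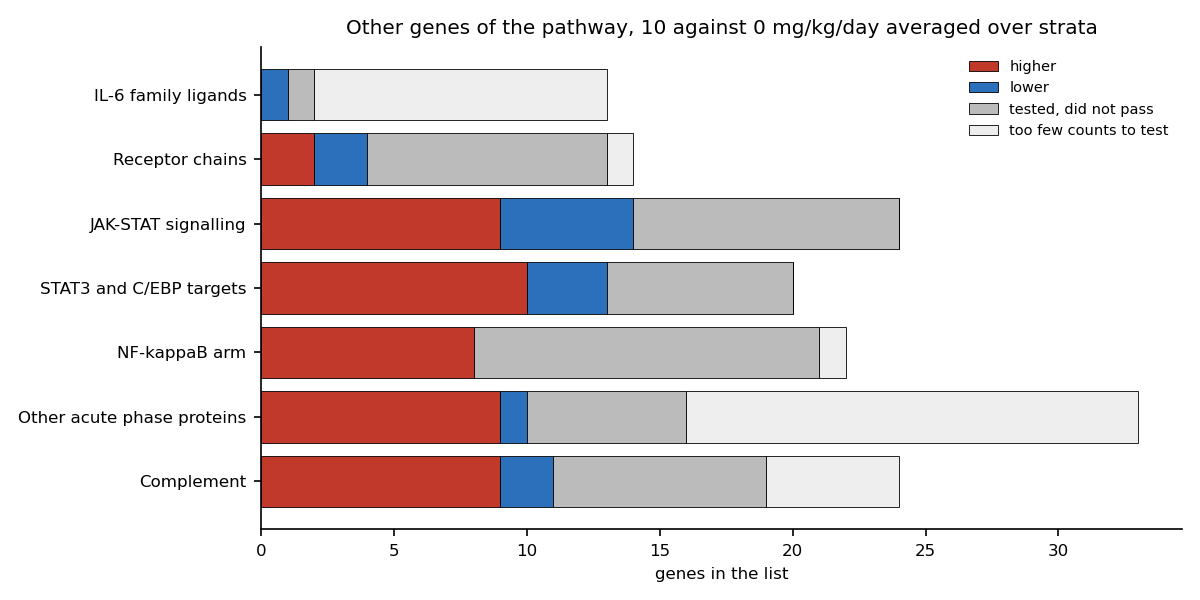
Number of genes in each of the 7 pathway lists (members left out) that rose, fell or did not pass at 10 against 0 mg/kg/day, or had too few counts to test (edgeR's quasi-likelihood test, adjusted p under 0.05). Of 13 ligands 11 had too few counts. Of 21 NF-kappaB genes tested 8 rose and 0 fell, so 38.1% passed, where 47.5% of all genes tested did.

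The genes whose level followed that of single members most closely were sought among 10534 genes, by Pearson correlation of deviations from the group means over 48 libraries, as a description. For Il6ra these were Foxo1 (0.78), Elmsan1 (0.75) and Retreg1 (0.74). For Lcn2 they were Dhx37 (0.70), Hsp90b1 (0.63) and Poldip3 (0.62), and for Socs3 they were Wdr6 (0.69), Sept9 (0.68) and Iqgap1 (0.67). Among the members, Il6ra and Il6st had a correlation of 0.51 with each other.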

How the data were processed

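RNA-seq of gastrocnemius from 48 mice in 12 groups was read from the deposited table of whole-number counts per gene, made by the authors with HISAT2 and the build GRCm39, per the submitters' processing notes. No source used here gives the counter, annotation, versions or strand setting. Gene positions in the table match GRCm38 (98.3% of shared gene identifiers, all 10 members), and are given in that build. The extraction text names TRIzol and mRNA purification, per the labels' protocols.

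Counts were filtered by group (filterByExpr, 15583 of 54532 genes kept), scaled by TMM and fitted with edgeR 4.0.16 in R 4.3.3 (quasi-likelihood, 1 coefficient per group, 36 residual degrees of freedom, common biological coefficient of variation 23.5%). Tests were two-sided with Benjamini-Hochberg adjustment over all genes at 0.05, for 12 contrasts, and an SE is the size of the log2 fold change over the square root of F. The code was tested on simulated counts. The labels number the replicates, called mice here, without stating that each is a separate animal, so p-values measure the spread between these samples, which may be technical. No pair of libraries within a group agreed within counting noise (73 pairs, lowest chi-square per degree of freedom 7.32).

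Relations to marker lists used 100000 permutations within groups (Python 3.11.15, scipy 1.17.1), with 1e-05 as the smallest unadjusted p they can give. Alternatives were other scalings and filters, DESeq2 1.42.0, limma 3.58.1 voom, a replicate block, an adipocyte covariate and fewer libraries. The fit without the libraries highest in Socs3 and Il6ra was added after seeing the data.

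The members and the pathway and marker lists were chosen with earlier results of these data known. All members are described. From each pathway list the text names up to 4 genes that passed with the smallest p and up to 2 of the most abundant that did not, and untested genes by their counts; some genes that this rule names are not reported here. The 3 most alike genes are given for Lcn2, Socs3 and Il6ra, among genes with an average log2 CPM of at least 1.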

Additional observations from a re-analysis of the deposited data

Results flagged for a closer look

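Among 110 sets of 1 member in 1 group of 4 or 5 mice, 15 held a mouse that stood apart from the others of its group by Dixon's criterion. For independent, normally distributed values chance gives about 1 in 20. These sets share libraries and CPM was taken without logs, so no excess over chance is read from the 15. The 15 came from 11 libraries. In replicate 2 of the Cyp2b-null males at 1 mg/kg/day, the library high in Alb, C3 (295 CPM), Hp (190.5 CPM) and Serpina3n (11.05 CPM) were each the highest of 4. In replicate 5 of the hCYP2B6-Tg males at 0, Hp (25.6 CPM) and Serpina3n (4.66 CPM) were the highest of 5. In replicate 2 of the hCYP2B6-Tg females at 10 mg/kg/day, the mouse with the highest Il6ra, Il6st (367 CPM) and Stat3 (66.9 CPM) were the highest of 4. Stat3 was also the highest of its group in replicate 3 of the Cyp2b-null females at 10 mg/kg/day (137.4 CPM), replicate 3 of the hCYP2B6-Tg males at 10 mg/kg/day (59.8 CPM) and replicate 2 of the hCYP2B6-Tg females at 1 mg/kg/day (79.1 CPM). Osmr was the lowest of 4 in replicate 1 of the hCYP2B6-Tg females at 10 mg/kg/day (8.74 CPM). Il1r1 was the highest in replicate 1 of the hCYP2B6-Tg females at 0 (7.31 CPM), Lcn2 in replicate 4 of the hCYP2B6-Tg males at 1 mg/kg/day (0.607 CPM), and Hp in replicate 1 of the hCYP2B6-Tg females at 1 mg/kg/day (13.5 CPM) and in replicate 1 of the Cyp2b-null females at 0 (7.14 CPM).

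The effect of 10 mg/kg/day on Il6st differed between the sexes by 0.49 on the log2 scale (male minus female), by the interaction contrast. Among the named pathway genes, the 3-way contrast of the effect of 10 mg/kg/day on Cebpd was 4.20 on the log2 scale. By sign, the Cyp2b-null minus hCYP2B6-Tg difference was higher in males than in females by that amount. In females that difference was negative and larger in size than in males, and Cebpd rose in every stratum but the Cyp2b-null females.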

How the results depend on the processing

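Counts of members and pathway genes passing moved by over 1.5 times in 19 cases, given here, and stayed within that under the remaining settings. With the adipocyte covariate the members called were 4 at 10 against 0, 3 at 10 against 1, 2 in hCYP2B6-Tg males, 1 in Cyp2b-null females, and 34 pathway genes passed. limma voom gave 2 members in hCYP2B6-Tg females and 2 between the sexes at 0. On unscaled totals 8 were called in Cyp2b-null females and 0 for the sex difference of the effect, which was also 0 without a filter, without the 6 libraries that stood apart and with the replicate block (Il6st 0.50, adjusted p = 0.0502). Without the 2 libraries highest in Socs3 and Il6ra, 1 was called in Cyp2b-null females and 2 between the sexes at 0. Leaving out 1 library at a time gave 8 to 8 members at 10 against 0, 6 to 8 at 10 against 1, 2 to 5 in hCYP2B6-Tg females, 3 to 6 in hCYP2B6-Tg males, 1 to 7 in Cyp2b-null females, 2 to 2 in Cyp2b-null males, 0 to 1 for the sex difference and the 3-way contrast, 1 to 2 between the sexes at 0, 0 to 0 for the genotype difference, the genotypes at 0 and 1 against 0, and 50 to 64 pathway genes. On unscaled totals Lifr (0.19), Grb2 (0.0032), Map3k7 (0.115) and Ikbkg (0.216) changed sign. Lcn2 had no value with a minimum CPM of 1 in 16 libraries. Over all genes, counts moved by over 1.5 times as follows. In Cyp2b-null females 1979 became 4893 on unscaled totals, 2975 with limma voom, 1079 with the covariate, also 1079 without the 2 libraries, and 836 without the 6 libraries. In hCYP2B6-Tg males 2882 became 4687 on unscaled totals, 1237 with the covariate and 1517 without the 6. In Cyp2b-null males 2463 became 4133 with limma voom and 1506 without the 6. Between the sexes at 0, 1182 became 2797 with limma voom and 760 without a filter. For the sex difference 20 became 92 with DESeq2, 187 with limma voom, 13 without a filter or with the replicate block, 5 without the 6 and 106 without the 2 libraries. The 3-way count (0.918% of genes) became 352 with DESeq2, 245 with limma voom, 90 with the replicate block, 81 without a filter, 55 with the covariate, 34 without the 2 libraries and 6 without the 6. The cause was not tested. Replicate numbers did not pair the samples over the strata together: same-numbered libraries of different doses had a median correlation of deviations of -0.016 over 46 pairs, 15 of them over 0.1. In hCYP2B6-Tg females most of these pairs were positive (from -0.068 to 0.191), and pairing within that stratum was not tested. Lcn2, with 0 to 5 counts per library at 0, is the member most limited by depth.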
